A study of Homo sapiens with 12 samples.

Results

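A set of 42 named lysosome and autophagy genes was followed in poly(A) RNA of IMR90 cells, a strain of human lung fibroblasts, among 48162 gene IDs in the count tables. All 42 had an ID. The genes were chosen by name, with earlier results of these data known. They comprised 6 membrane proteins, 9 proteases, 5 glycosidases, 7 genes of lipid handling, 5 of the proton pump, the channel MCOLN1 with CLN3, 3 MiT/TFE factors and 5 autophagy genes. There were 12 libraries, 3 in each of 4 groups. RAS/shDOT1L cells carried pBABE-HRASG12V, which expresses an oncogenic HRAS and drives these cells into senescence, together with 1 short hairpin RNA against DOT1L in pLKO.1. DOT1L is the methyltransferase of lysine 79 on histone H3. RAS cells carried pBABE-HRASG12V, DOT1L OE cells carried human DOT1L (MSCB-hDot1lwt), and control cells carried the empty pBABE vector. All cells were infected in culture, kept in 2% oxygen and, by the labels, selected for 4 days. Selection was with 3 µg/mL puromycin, except in DOT1L OE, where it was with 1 µg/mL blasticidin, so an effect of DOT1L and one of the vector or the drug cannot be told apart in that group. The methods of the study give another schedule of selection for cells infected with pBABE vectors. Whether the RAS libraries carried a control hairpin was not stated. By the labels, RAS and RAS/shDOT1L cells were senescent and DOT1L OE cells were not.

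The lysosome is the acidic organelle in which cells break down proteins, sugars and lipids, and autophagy is the route by which a membrane, the autophagosome, wraps cell contents and delivers them to it. A proton pump keeps its inside acidic, hydrolases digest the cargo, and membrane proteins and channels keep the organelle intact and let the products out. The transcription factors TFEB, TFE3 and MITF, of the MiT/TFE family, switch on many of these genes together through a short DNA element in their promoters. Senescent fibroblasts are known for a large lysosomal compartment, and the stain most used to find them reads lysosomal beta-galactosidase, the product of GLB1.

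Library totals ran from 16128055 to 19503457 counts. Both targeted genes followed the labels. DOT1L averaged 11 CPM (counts scaled to a library of 1000000 with TMM factors) in RAS/shDOT1L, 84.5 in RAS, 202 in DOT1L OE and 31.7 in control, and HRAS averaged 275, 503, 79.4 and 85.9 CPM in the same order. HRAS was thus 1.8-fold lower in RAS/shDOT1L than RAS (edgeR adjusted p = 3.87e-16), and its part in the differences between these groups was not tested. The 8 fibroblast markers summed to 16126 to 16709 CPM in RAS/shDOT1L, 14621 to 15047 in RAS, 15014 to 15669 in DOT1L OE and 19405 to 19641 in control, and 6 of the 8 were called lower than control in RAS (all 8 with the GC offset described below), 6 in DOT1L OE and 7 in RAS/shDOT1L. The leukocyte marker ITGAM and the epithelial markers SFTPC and SCGB1A1 were at 0 in every group. The 8 epithelial markers summed to 9.52 to 9.78 CPM in RAS/shDOT1L, 4.91 to 8.34 in RAS, 8.85 to 9.45 in DOT1L OE and 3.07 to 6.35 in control, with CLDN4 alone at 8.82, 6.31, 6.01 and 2.43 CPM. The 7 endothelial markers, with CDH5 and EMCN at 0 in all groups but RAS/shDOT1L, summed to 26.2 to 31.9 CPM in RAS/shDOT1L, 64.6 to 67.9 in RAS, 134 to 147 in DOT1L OE and 63.9 to 70 in control, and the part of these 3 marker lists in the results was not tested. Mitochondrial genes took 3.64% to 3.87% of counts in RAS, against 2.12% to 2.54% in the other groups.

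Promoters of the set were searched for the core of the MiT/TFE element. RefSeq promoter sequences (GRCh38.p14, 250 bases before to 50 after a gene's start) matched 32 of the 42 genes. LAMP2, CTSB, CTSK, CTSS, HEXA, PSAP, ASAH1, ATP6V1H, ATP6V1A and ATP6V1B2 had no entry. The motifs searched, on both strands, were CACGTG and the longer TCACGTGA, which contains it, and each reads the same on either strand. CACGTG was present in 8 of 32 promoters (25%), against 7.26% of 35116 promoters in the table, and TCACGTGA in 6 of 32 (18.8%), against 0.98%. These factors are known to switch on many lysosome genes, and the set was chosen by name. The shares therefore do not bear on the changes between groups. Promoters were not matched for GC content, and the difference in shares was not tested. CTSD and NEU1 held only the shorter one. Stretches that end at the gene's start or 4 to 38 bases before it are printed 5′ to 3′ on the gene's strand, to show how the copies sit. They come from 5 of the 6 promoters with the longer motif, with each CACGTG in capitals. In CLN3 the longer motif lies past the gene's start and is not shown. The start meant here is that of the RefSeq promoter, which can differ from the gene spans given below. The CTSA stretch lies inside the span given for CTSA.
LAMP1 (chr13:113297032-113297231, plus strand): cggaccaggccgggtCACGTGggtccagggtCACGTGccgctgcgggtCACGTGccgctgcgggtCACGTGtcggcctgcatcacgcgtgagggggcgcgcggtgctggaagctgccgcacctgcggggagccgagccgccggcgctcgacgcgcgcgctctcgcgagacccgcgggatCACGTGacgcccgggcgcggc
CTSA (chr20:45891278-45891330, plus strand): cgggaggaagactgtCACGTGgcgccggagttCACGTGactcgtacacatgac
GAA (chr17:80101490-80101570, plus strand): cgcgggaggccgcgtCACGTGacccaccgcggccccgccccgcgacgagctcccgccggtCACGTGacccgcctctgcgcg
ATP6V0D1 (chr16:67481196-67481231, minus strand): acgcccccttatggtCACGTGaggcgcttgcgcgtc
MCOLN1 (chr19:7522568-7522623, plus strand): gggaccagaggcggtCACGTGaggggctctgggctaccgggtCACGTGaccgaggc
LAMP1 had 5 copies in the stretch shown, of 6 in its promoter, and MCOLN1 had 2. TCACGTGA occurs at 2 places in the LAMP1 promoter, and the place at the gene's start is not shown. A match is a run of letters and does not show that a factor binds there.

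Differences between groups ran with the GC content of transcripts across all genes, and this touches every value below. In RAS against control the median log2 change was -0.63 in the lowest decile of GC content (up to 38.4%) and 0.59 in the highest (61.9% and above). The same medians were 0.42 and -0.44 in RAS/shDOT1L against RAS, and -0.22 and 0.12 in DOT1L OE against control. Transcripts of the set had a median GC content of 50.6%, between 36% for LAMP2 and 64.8% for GAA, against 48.3% for all genes tested. Each comparison was therefore fitted a second time with a GC offset, which takes the trend of each library out. What produced the trend was not tested, and it cannot be told apart from the groups because the labels name no batch.

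In RAS against control, which asks what the oncogene does, most of the set was higher. Of 41 genes tested (CLN3 was too low), 30 were higher and 6 lower (edgeR quasi-likelihood test, adjusted p under 0.05), while 31.9% and 32.0% of all 13554 genes tested were called in those directions. The median log2 fold change (RAS over control) was 0.54, against -0.04 over all genes. A change of over 1.5-fold (glmTreat, edgeR's test against a fold threshold) was called for 17 higher and 3 lower, with 13.4% and 13.6% of all genes. All 9 proteases were higher (8 with the GC offset, where CTSZ was lower), as were 4 of 5 glycosidases (3 with the offset), 4 of 5 pump subunits (5 with the offset) and 4 of 5 autophagy genes, whereas the membrane proteins were split, with 3 higher and 2 lower of 6. With the GC offset, 29 were higher and 9 lower (27.3% and 26.0% of all genes) and the median was 0.28. Of the 30 genes, 24 stayed higher in that fit. Over 1.5-fold, the GC offset left 13 higher and 1 lower (8.93% and 9.30% of all genes). It took that call from SCARB2, CTSA, CTSD, ATP6V0D1, ATP6AP1, MCOLN1, MITF and ULK1 and gave it to GM2A and MAP1LC3B.

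In RAS/shDOT1L against RAS, which asks what the hairpin does in senescent cells, most of the set was lower. All RAS/shDOT1L libraries carried the same hairpin, so loss of DOT1L and other effects of that hairpin cannot be told apart. Nor can an effect of the added vector, because a control hairpin in RAS was not stated. Of 41 tested, 4 were higher and 33 lower, against 26.3% and 26.4% of 13398 genes, and the median log2 change was -0.68 (0.03 over all genes). Over 1.5-fold, 1 was higher and 19 lower (8.34% and 8.62% of all genes). Each of the 9 proteases (8 with the GC offset, without CTSZ) and 5 glycosidases was lower, with 5 of 7 lipid genes and 4 of 5 autophagy genes. The 4 higher genes were LAPTM4A, LIPA, ATP6V1A and TFEB. With the GC offset 5 were higher and 32 lower (22.8% and 23.8% of all genes), the median was -0.53, and 30 of the 33 stayed lower. Over 1.5-fold there were then 2 higher and 15 lower (6.05% and 6.63% of all genes), with the call gone for CTSD, GAA, GUSB, ATP6AP1, MCOLN1 and ULK1 and added for LAMP2, CTSL and TFEB. This comparison and the first share the RAS libraries, which are on top in one and below in the other, so the opposite signs are not independent of each other.

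In DOT1L OE against control, which asks what DOT1L does without the oncogene, 12 of 40 genes tested were higher and 26 lower, against 29.9% and 29.9% of 13660 genes. The median log2 change was -0.47 (0.01 over all genes). Most changes were small: over 1.5-fold, 2 were higher and 6 lower (11.2% and 9.58% of all genes). All 5 membrane proteins tested and 6 of 7 lipid genes were lower, while 3 of 5 glycosidases and 3 of 5 autophagy genes were higher. With the GC offset 11 were higher and 27 lower (29.7% and 29.9%), with a median of -0.53.

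RAS/shDOT1L was also set against control. Of 41 genes, 17 were higher and 16 lower, against 27.9% and 27.6% of 13519 genes, and the median log2 change was -0.05 (-0.01 over all genes). Over 1.5-fold 4 were higher and 8 lower (9.44% and 9.68%). With the GC offset 15 were higher and 18 lower. Over all genes in that fit, 1889 were higher and 1817 lower of 6595 at or above the median GC content, and 1832 and 1788 of 6619 under it. The offset left 14 of the 17 and all 16 calls in place. It took the call from CD63, MCOLN1 and SQSTM1, and it called LIPA higher and CTSD and ULK1 lower. The set thus held genes on both sides of their control level in cells with both the oncogene and the hairpin, with CTSK and CTSS far above it and MAP1LC3B, MITF and LAMP1 far below. In bulk RNA, fewer cells with a transcript and less of it per cell cannot be told apart in any of these comparisons.

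**Figure D1:**
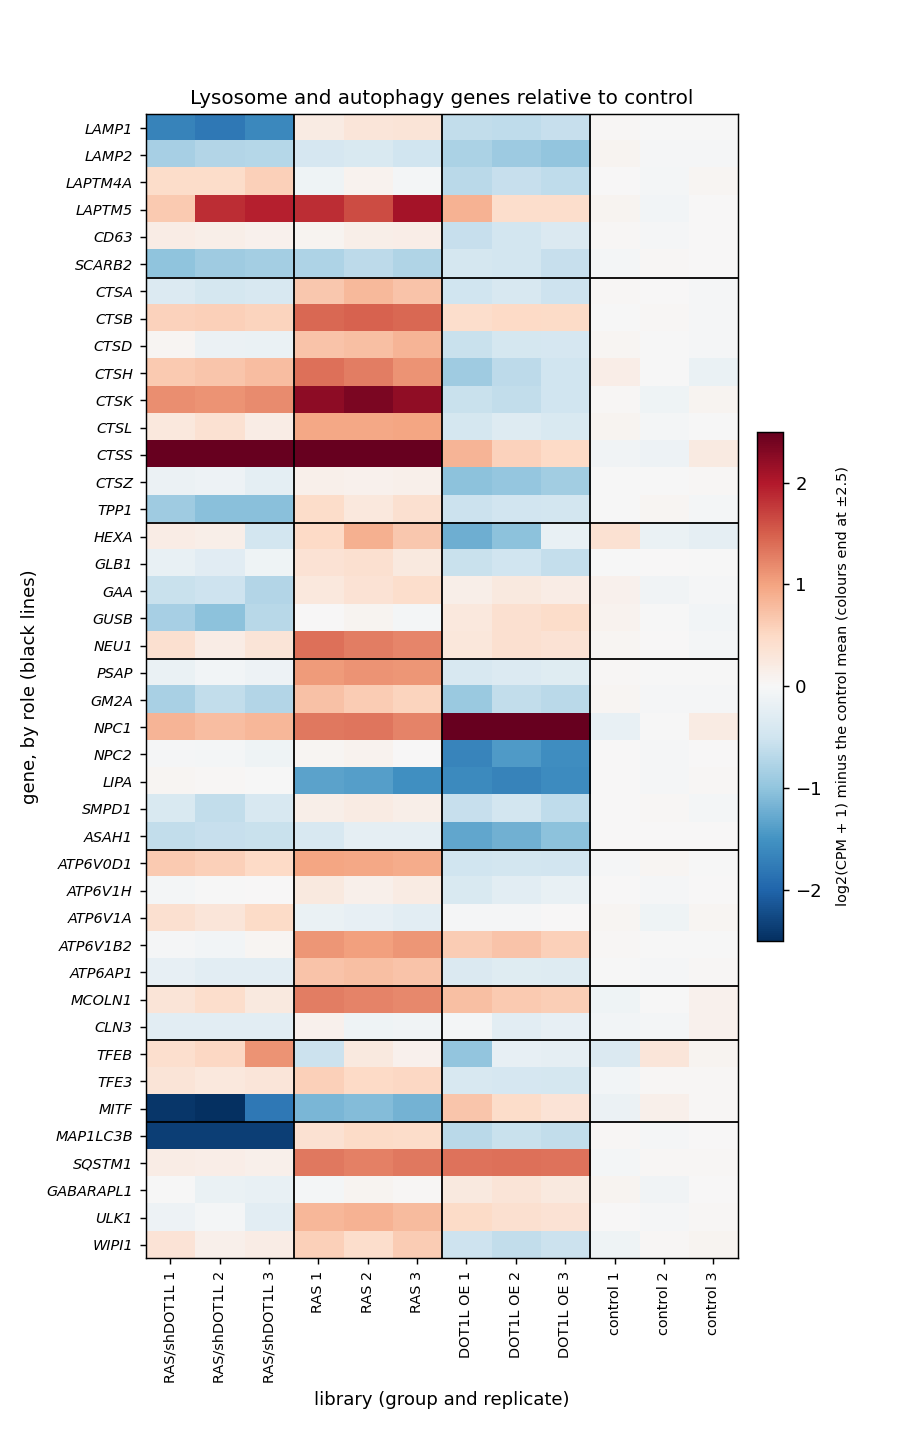
Level of the 42 genes in the 12 libraries. Columns are libraries by group and rows are genes by role (black lines); colour is log2(CPM + 1) minus the mean of the 3 control libraries, red for higher and blue for lower, ending at ±2.5. Most proteases are red in RAS and paler in RAS/shDOT1L, NPC1 is darkest in DOT1L OE, and MAP1LC3B is dark blue in RAS/shDOT1L alone.

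The major membrane glycoproteins LAMP1 and LAMP2, which line the inside of the lysosomal membrane, did not move together. LAMP1 (chromosome 13, 113297239 to 113323672, plus strand; coordinates here and below are GRCh38) had 195, 180 and 203 CPM in RAS/shDOT1L, 720, 763 and 782 in RAS, 403, 399 and 416 in DOT1L OE, and 636, 615 and 614 in control. Its RAS/shDOT1L libraries were the lowest of the 12 by a wide margin, and no group overlapped another. It was 3.87-fold lower in RAS/shDOT1L than RAS (log2 fold -1.95 ± 0.05 SE, adjusted p = 1.43e-25 by edgeR) and 3.21-fold lower than control (log2 fold -1.68 ± 0.05 SE, adjusted p = 1.79e-21 by edgeR), and 1.53-fold lower in DOT1L OE than control (log2 fold -0.61 ± 0.04 SE, adjusted p = 2.08e-14 by edgeR). Its 1.21-fold rise in RAS against control (log2 fold 0.28 ± 0.04 SE, adjusted p = 4.37e-08 by edgeR) was absent with the GC offset (log2 fold -0.03, adjusted p = 0.582). LAMP2 (chromosome X, 120426148 to 120469365, minus strand), whose transcript was the poorest in GC of the set, had 125, 134 and 136 CPM in RAS/shDOT1L, 168, 172 and 159 in RAS, 129, 119 and 113 in DOT1L OE, and 234, 219 and 220 in control. All 3 other groups lay below control. LAMP2 was 1.86-fold lower in DOT1L OE (log2 fold -0.89 ± 0.05 SE, adjusted p = 1.61e-15 by edgeR) and 1.69-fold lower in RAS/shDOT1L (log2 fold -0.76 ± 0.06 SE, adjusted p = 2.21e-12 by edgeR) than control. In RAS it was 1.35-fold lower than control (log2 fold -0.43 ± 0.05 SE, adjusted p = 5.62e-09 by edgeR), whereas the GC offset made it higher (log2 fold 0.21, adjusted p = 0.000553).

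SCARB2, a membrane protein of lysosomes that also acts as a sorting receptor, was 1.88-fold lower in RAS/shDOT1L, 1.65-fold lower in RAS and 1.4-fold lower in DOT1L OE than control, and stayed lower in all 3 with the GC offset. Against RAS, its call in RAS/shDOT1L as counted (log2 fold -0.18) was lost without RAS replicate 2 (-0.15) or RAS/shDOT1L replicate 1 (-0.13). With the GC offset the log2 change of SCARB2 there was -0.46 (edgeR adjusted p = 1.42e-07). CD63, a tetraspanin of late endosomes, was the most abundant of the set per kilobase of transcript, at 1770, 1747, 1160 and 1604 CPM per kb in RAS/shDOT1L, RAS, DOT1L OE and control. It was 1.38-fold lower in DOT1L OE than control (log2 fold -0.46 ± 0.04 SE, adjusted p = 2.15e-11 by edgeR). Its difference in RAS against control was 0.12 on the log2 scale and turned to -0.08 with the GC offset. LAPTM4A, a membrane protein of late endosomes and lysosomes, was 1.46-fold higher in RAS/shDOT1L than RAS and 1.54-fold lower in DOT1L OE than control.

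LAPTM5 (chromosome 1, 30732469 to 30757774, minus strand), a lysosomal protein best known from leukocytes, stood near its floor. It had 0.652, 2.76 and 3.03 CPM in RAS/shDOT1L, 2.8, 2.24 and 3.45 in RAS, 0.906, 0.42 and 0.421 in DOT1L OE, and 0.103, 0 and 0.0503 in control. All RAS and RAS/shDOT1L libraries lay above all control libraries, and RAS/shDOT1L replicate 1 lay well below the other 2 of its group. Over the groups, 138 counts in RAS stood against 3 in control, a ratio of 54.3 (exact 95% interval of counting error 18.2 to 267, edgeR adjusted p = 2.23e-07). For RAS/shDOT1L the ratio to control was 41.7 (13.9 to 206) from 102 counts, and for DOT1L OE, which was below the filter for a test, it was 11 (3.46 to 55.7) from 35 counts. RAS/shDOT1L and RAS overlapped (log2 fold -0.37 ± 0.47 SE, adjusted p = 0.534 by edgeR). The 8 leukocyte markers summed to 1.57 to 5.24 CPM in RAS/shDOT1L, 4.65 to 5.62 in RAS, 1.49 to 1.77 in DOT1L OE and 1.46 to 1.86 in control, with ITGAM at 0 in every group and TYROBP at 0 in RAS/shDOT1L, RAS and control. Of these, CSF1R stood at 2.14, 2.32, 0.334 and 0.192 CPM and CD14 at 1.28, 2.57, 1.11 and 1.15 CPM in the same order, both called higher in RAS than control as counted (CSF1R alone with the GC offset), and their part in the rise was not tested.

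Among the proteases, CTSS, cathepsin S, a cysteine protease of antigen-presenting cells, had the largest change in RAS against control. CTSS (chromosome 1, 150730079 to 150765957, minus strand) had 36.3, 45.3 and 40.4 CPM in RAS/shDOT1L, 86.5, 86.6 and 83.7 in RAS, 3.84, 2.99 and 2.76 in DOT1L OE, and 1.5, 1.45 and 2.11 in control. Levels in RAS and RAS/shDOT1L were far above those in the other groups, with no overlap. It was 50.3-fold higher in RAS than control (log2 fold 5.65 ± 0.13 SE, adjusted p = 3.23e-27 by edgeR), 2.08-fold lower in RAS/shDOT1L than RAS (log2 fold -1.06 ± 0.09 SE, adjusted p = 4.68e-12 by edgeR) and still 24-fold higher in RAS/shDOT1L than control. In DOT1L OE it was 1.89-fold higher than control (log2 fold 0.92 ± 0.33 SE, adjusted p = 0.016 by edgeR), a call lost without DOT1L OE replicate 1 (log2 change 0.77). The leukocyte marker sums given for LAPTM5 were higher in RAS than control here too, and their part in the CTSS levels was not tested.

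CTSK (chromosome 1, 150794880 to 150809577, minus strand), cathepsin K, known for digesting collagen in bone, had 116, 114 and 118 CPM in RAS/shDOT1L, 247, 267 and 243 in RAS, 34.8, 33.3 and 36.4 in DOT1L OE, and 52.8, 48 and 54.1 in control. RAS was highest and DOT1L OE lowest, and no group overlapped another. It was 4.88-fold higher in RAS than control (log2 fold 2.29 ± 0.06 SE, adjusted p = 7.64e-26 by edgeR), and in RAS/shDOT1L it was 2.15-fold lower than RAS (log2 fold -1.11 ± 0.06 SE, adjusted p = 4.45e-17 by edgeR) yet 2.25-fold higher than control. In DOT1L OE it was 1.48-fold lower than control (log2 fold -0.56 ± 0.08 SE, adjusted p = 5.14e-07 by edgeR). CTSK and CTSS thus differed in direction in DOT1L OE, where the second passed only narrowly.

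Cathepsin B, a major cysteine protease of the lysosome, was among the most abundant of the set. CTSB had 2841, 2884 and 2829 CPM in RAS/shDOT1L, 5154, 5330 and 5195 in RAS, 2606, 2706 and 2690 in DOT1L OE, and 1901, 1966 and 1886 in control. Every group lay apart from the others. CTSB was 2.72-fold higher in RAS than control (log2 fold 1.45 ± 0.02 SE, adjusted p = 3.11e-31 by edgeR), 1.81-fold lower in RAS/shDOT1L than RAS (log2 fold -0.86 ± 0.03 SE, adjusted p = 4.34e-22 by edgeR) and 1.39-fold higher in DOT1L OE than control (log2 fold 0.48 ± 0.03 SE, adjusted p = 1.95e-14 by edgeR). CTSH (chromosome 15, 78921058 to 78949574, minus strand), cathepsin H, an aminopeptidase, was much scarcer, with 8.87, 9.16 and 9.71 CPM in RAS/shDOT1L, 15.4, 14.2 and 12.6 in RAS, 2.4, 2.99 and 3.46 in DOT1L OE, and 6.09, 5.23 and 4.62 in control. For CTSH, RAS was highest and DOT1L OE lowest, without overlap. It was 2.65-fold higher in RAS (log2 fold 1.41 ± 0.19 SE, adjusted p = 9.47e-08 by edgeR) and 1.79-fold lower in DOT1L OE (log2 fold -0.84 ± 0.24 SE, adjusted p = 0.00364 by edgeR) than control. In RAS/shDOT1L against RAS the log2 change was -0.59 (edgeR adjusted p = 0.00649).

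CTSA (chromosome 20, 45890144 to 45898949, plus strand), the protective protein that holds beta-galactosidase and neuraminidase in a complex, had 230, 217 and 222 CPM in RAS/shDOT1L, 470, 512 and 482 in RAS, 207, 221 and 203 in DOT1L OE, and 297, 294 and 287 in control. RAS was highest, and RAS/shDOT1L and DOT1L OE overlapped below control. It was 1.67-fold higher in RAS than control (log2 fold 0.74 ± 0.04 SE, adjusted p = 1.27e-16 by edgeR) and fell 2.16-fold in RAS/shDOT1L against RAS (log2 fold -1.11 ± 0.05 SE, adjusted p = 6.07e-19 by edgeR), ending 1.31-fold below control. TPP1 (chromosome 11, 6612768 to 6619448, minus strand), a tripeptidyl peptidase, had 72.4, 64.7 and 64.8 CPM in RAS/shDOT1L, 186, 161 and 178 in RAS, 92.4, 96.1 and 97.6 in DOT1L OE, and 134, 140 and 130 in control. RAS/shDOT1L libraries were the lowest, 2.57-fold lower than RAS (log2 fold -1.36 ± 0.07 SE, adjusted p = 4.38e-17 by edgeR) and 1.99-fold lower than control (edgeR adjusted p = 5.9e-13). In RAS, TPP1 was 1.3-fold higher than control (log2 fold 0.38 ± 0.06 SE, adjusted p = 8.32e-07 by edgeR). The aspartic protease CTSD and the cysteine protease CTSL were 1.71- and 1.97-fold higher in RAS than control and 1.79- and 1.61-fold lower in RAS/shDOT1L than RAS as counted. For CTSD the GC offset brought these to 0.18 and -0.41 on the log2 scale, and it was then past 1.5-fold in neither. Exons of CTSD overlap loci on the same strand, so shared reads may be uncounted and its level is uncertain. CTSZ moved least of the proteases with the oncogene. Its log2 fold of 0.12 in RAS against control turned to -0.32 with the GC offset, and the call was lost without control replicate 1 or control replicate 2 (0.11 each). It was 1.94-fold lower in DOT1L OE than control (log2 fold -0.95 ± 0.05 SE, adjusted p = 1.72e-16 by edgeR), past 1.5-fold (glmTreat adjusted p = 6.65e-08), which no other protease was in that comparison.

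**Figure D2:**
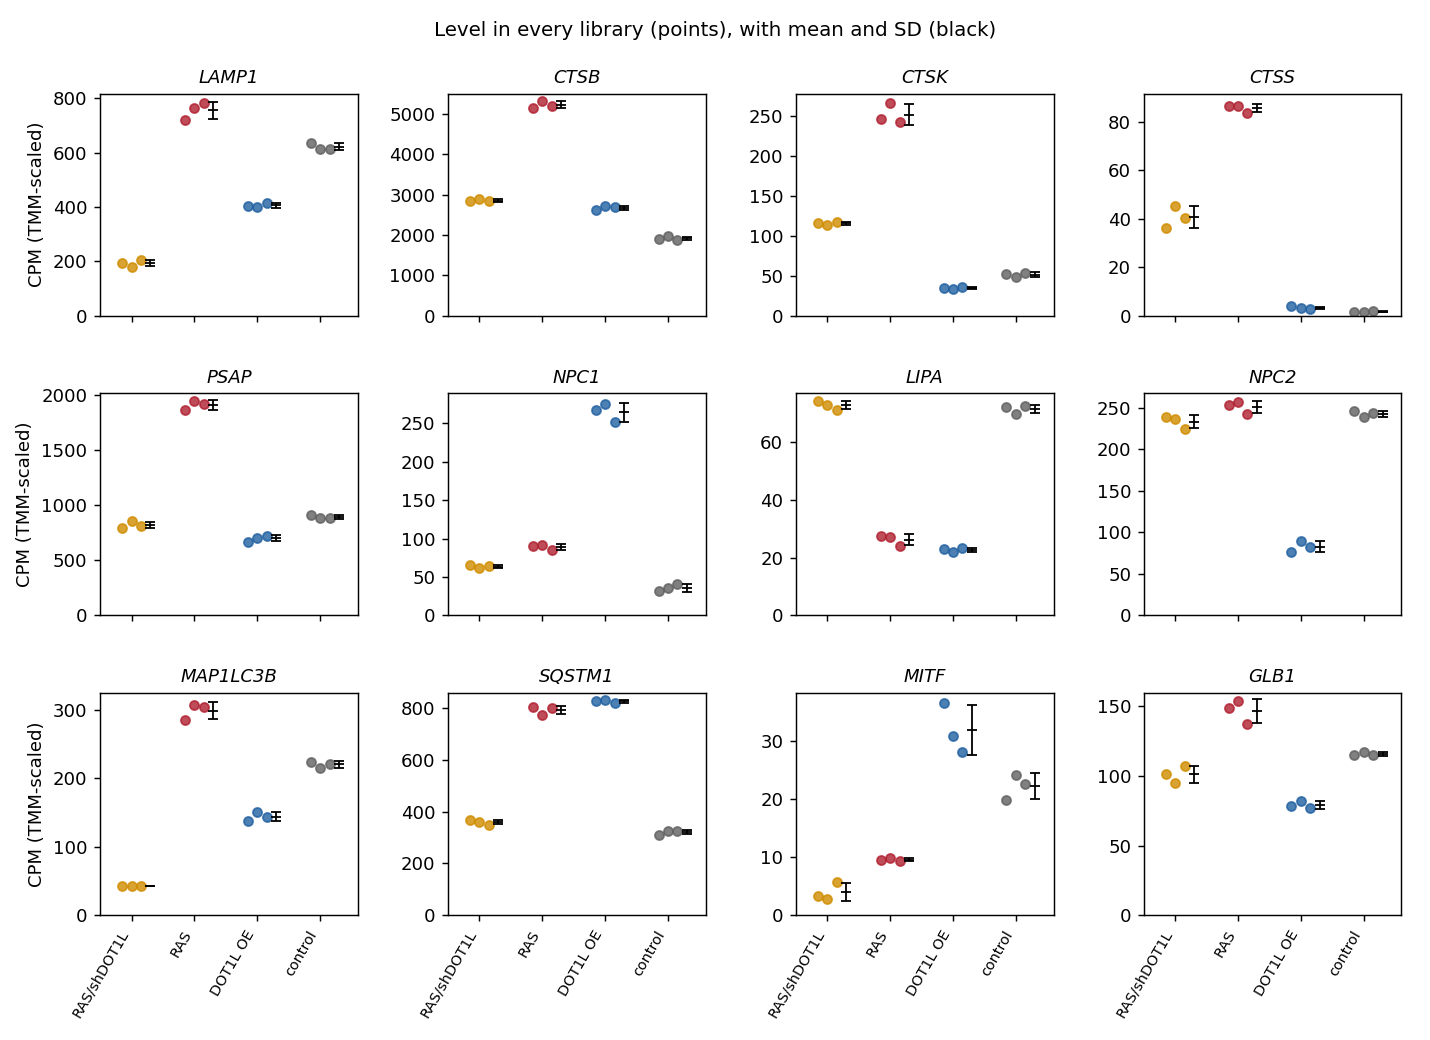
Level of 12 genes in every library, in TMM-scaled CPM on axes that start at 0, with groups along the horizontal axis. Coloured points are libraries and the black bar is the mean ± SD of 3. CTSB, CTSK, CTSS and PSAP are highest in RAS, NPC1 is highest in DOT1L OE (251 to 275 CPM), and MAP1LC3B is at 42 to 42.4 CPM in RAS/shDOT1L, below every other library.

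Among glycosidases, GLB1 encodes the enzyme behind the senescence stain. GLB1 (chromosome 3, 32996609 to 33097202, minus strand) had 101, 95.2 and 107 CPM in RAS/shDOT1L, 149, 154 and 137 in RAS, 78.4, 81.9 and 76.6 in DOT1L OE, and 115, 117 and 115 in control. RAS libraries were the highest and DOT1L OE the lowest, without overlap. It was 1.27-fold higher in RAS than control (log2 fold 0.34 ± 0.06 SE, adjusted p = 4.31e-06 by edgeR), 1.44-fold lower in RAS/shDOT1L than RAS (log2 fold -0.52 ± 0.07 SE, adjusted p = 6.83e-08 by edgeR) and 1.46-fold lower in DOT1L OE than control (log2 fold -0.55 ± 0.06 SE, adjusted p = 1.34e-09 by edgeR). With the GC offset the log2 changes of GLB1 in these comparisons were 0.16 (edgeR adjusted p = 0.0176), -0.50 and -0.62. In RAS/shDOT1L it lay 1.14-fold below control (edgeR adjusted p = 0.0136), a call lost without RAS/shDOT1L replicate 2 (log2 change -0.15). Exons of GLB1 overlap those of TMPPE on the same strand, at 0.295, 1.99, 2.09 and 1.94 CPM in RAS/shDOT1L, RAS, DOT1L OE and control. Reads shared by both may be uncounted, so the level of GLB1 is uncertain. NEU1 (chromosome 6, 31857659 to 31862905, minus strand), the neuraminidase that removes sialic acid, changed more, with 94.5, 81.6 and 89.2 CPM in RAS/shDOT1L, 187, 176 and 169 in RAS, 87.3, 94.2 and 92.6 in DOT1L OE, and 73.9, 72 and 68.9 in control. RAS was highest and control lowest, and the other groups overlapped between them. It was 2.47-fold higher in RAS than control (log2 fold 1.31 ± 0.06 SE, adjusted p = 5.21e-19 by edgeR) and 1.98-fold lower in RAS/shDOT1L than RAS (log2 fold -0.98 ± 0.07 SE, adjusted p = 4.18e-14 by edgeR).

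GAA, the glycogen-digesting acid alpha-glucosidase and the richest in GC of the set, was 1.29-fold higher in RAS than control (log2 fold 0.37 ± 0.09 SE, adjusted p = 0.00045 by edgeR), but lower with the GC offset (log2 fold -0.25, adjusted p = 0.0186). It was 1.96-fold lower in RAS/shDOT1L than RAS as counted, and with the GC offset the log2 change was -0.52 in place of -0.97. GUSB, beta-glucuronidase, was 1.85-fold lower in RAS/shDOT1L than RAS (log2 fold -0.88 ± 0.14 SE, adjusted p = 3.32e-06 by edgeR) and 1.32-fold higher in DOT1L OE than control. HEXA, which takes part in the breakdown of GM2 ganglioside, had 13.7, 18.2 and 15.6 CPM in RAS, against 12.5, 8.24 and 7.89 in control, 1.65-fold higher in RAS (edgeR adjusted p = 0.000713). Its exons overlap a locus on the same strand. The study likens its counts to those of htseq-count with default settings, so reads shared by both may be uncounted and its level is uncertain.

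Among the genes of the set tested in DOT1L OE against control, the largest change was of a gene of lipid handling. NPC1 (chromosome 18, 23506184 to 23586506, minus strand), the membrane protein that moves cholesterol out of lysosomes, had 65.1, 61.5 and 63.9 CPM in RAS/shDOT1L, 90.7, 91.1 and 85 in RAS, 267, 275 and 251 in DOT1L OE, and 31.2, 35.1 and 41.1 in control. Every DOT1L OE library was more than double any other library. NPC1 was 7.39-fold higher in DOT1L OE than control (log2 fold 2.89 ± 0.07 SE, adjusted p = 6.8e-26 by edgeR) and 2.86 on the log2 scale with the GC offset. It was also 2.48-fold higher in RAS (log2 fold 1.31 ± 0.09 SE, adjusted p = 6.4e-15 by edgeR) and 1.78-fold higher in RAS/shDOT1L than control, and 1.38-fold lower in RAS/shDOT1L than RAS (log2 fold -0.47 ± 0.08 SE, adjusted p = 3.92e-06 by edgeR). RMC1, on the opposite strand with overlapping exons, stood at 19.3, 25.3, 27.2 and 17.8 CPM in RAS/shDOT1L, RAS, DOT1L OE and control.

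NPC2 (chromosome 14, 74476192 to 74494177, minus strand), the soluble protein that hands cholesterol to NPC1, went the other way in DOT1L OE. It had 239, 236 and 225 CPM in RAS/shDOT1L, 253, 257 and 243 in RAS, 76.2, 90.2 and 82.5 in DOT1L OE, and 246, 239 and 244 in control. The DOT1L OE libraries stood far below all others, 2.92-fold lower than control (log2 fold -1.55 ± 0.06 SE, adjusted p = 4.59e-21 by edgeR). RAS against control did not pass the test as counted (log2 fold 0.05 ± 0.05 SE, adjusted p = 0.387 by edgeR). With the GC offset NPC2 was called higher in RAS than control (log2 fold 0.15, edgeR adjusted p = 0.00633). It was then also called lower in RAS/shDOT1L than RAS (log2 fold -0.16, edgeR adjusted p = 0.0114). LIPA (chromosome 10, 89213569 to 89414557, minus strand), the acid lipase that frees cholesterol from its esters, had 74.2, 73 and 71.3 CPM in RAS/shDOT1L, 27.6, 27 and 24.1 in RAS, 23, 21.8 and 23.3 in DOT1L OE, and 72.1, 69.8 and 72.5 in control. RAS and DOT1L OE were low, and RAS/shDOT1L overlapped control. LIPA was 2.72-fold lower in RAS than control (log2 fold -1.45 ± 0.09 SE, adjusted p = 9.67e-16 by edgeR), 3.14-fold lower in DOT1L OE than control (log2 fold -1.65 ± 0.08 SE, adjusted p = 5.68e-18 by edgeR) and 2.81-fold higher in RAS/shDOT1L than RAS (log2 fold 1.49 ± 0.10 SE, adjusted p = 5.91e-15 by edgeR). As counted it was the only gene of the set over 1.5-fold higher in RAS/shDOT1L than RAS by glmTreat, and with the GC offset TFEB passed too. Against control, RAS/shDOT1L differed by 0.03 on the log2 scale as counted (edgeR adjusted p = 0.72), and with the GC offset LIPA was called higher there (log2 fold 0.22, edgeR adjusted p = 0.013). The offset brought its log2 change to -0.97 in RAS against control and 1.20 in RAS/shDOT1L against RAS.

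PSAP (chromosome 10, 71816298 to 71851251, minus strand), the precursor of saposins that present sphingolipids to their hydrolases, had 799, 854 and 813 CPM in RAS/shDOT1L, 1866, 1949 and 1920 in RAS, 671, 703 and 725 in DOT1L OE, and 912, 881 and 883 in control. RAS was more than double any other group. PSAP was 2.14-fold higher in RAS than control (log2 fold 1.10 ± 0.03 SE, adjusted p = 1.59e-25 by edgeR), 2.3-fold lower in RAS/shDOT1L than RAS (log2 fold -1.20 ± 0.04 SE, adjusted p = 3.9e-23 by edgeR) and 1.27-fold lower in DOT1L OE than control (log2 fold -0.35 ± 0.04 SE, adjusted p = 3.95e-09 by edgeR). GM2A (chromosome 5, 151212150 to 151270440, plus strand), the activator that presents GM2 ganglioside, had 52, 60.1 and 54.9 CPM in RAS/shDOT1L, 155, 144 and 137 in RAS, 48.4, 59.6 and 57.5 in DOT1L OE, and 95.9, 90.8 and 90.7 in control. RAS was highest, and RAS/shDOT1L and DOT1L OE overlapped below control. It was 1.57-fold higher in RAS than control (log2 fold 0.65 ± 0.06 SE, adjusted p = 3.41e-11 by edgeR) and 2.58-fold lower in RAS/shDOT1L than RAS (log2 fold -1.37 ± 0.08 SE, adjusted p = 1.17e-16 by edgeR), below its control level.

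ASAH1, acid ceramidase, had 86.1, 89.3 and 90.7 CPM in RAS/shDOT1L, 101, 114 and 113 in RAS, 53.8, 57.2 and 64.5 in DOT1L OE, and 133, 133 and 133 in control. All 3 groups lay below control, and DOT1L OE lay lowest, 2.26-fold below control (log2 fold -1.18 ± 0.07 SE, adjusted p = 1.93e-16 by edgeR). In RAS it was 1.22-fold lower than control as counted and higher with the GC offset (log2 fold 0.21, adjusted p = 0.0034). SMPD1, acid sphingomyelinase, behaved in the opposite way there, with 0.17 as counted and -0.33 with the offset, and it was 1.52-fold lower in RAS/shDOT1L than RAS.

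Subunits of the proton pump, an ATPase that acidifies lysosomes, did not share one direction. ATP6V1B2, a subunit of the ATP-hydrolysing part, had 78.1, 75.7 and 82.2 CPM in RAS/shDOT1L, 172, 162 and 172 in RAS, 123, 130 and 121 in DOT1L OE, and 80.8, 78.7 and 78.4 in control. RAS was highest, DOT1L OE came next, and RAS/shDOT1L overlapped control. It was 2.13-fold higher in RAS (log2 fold 1.09 ± 0.06 SE, adjusted p = 2.59e-17 by edgeR) and 1.57-fold higher in DOT1L OE (log2 fold 0.65 ± 0.06 SE, adjusted p = 2.11e-11 by edgeR) than control, and 2.12-fold lower in RAS/shDOT1L than RAS (log2 fold -1.08 ± 0.07 SE, adjusted p = 1.83e-15 by edgeR). ATP6V1A, the catalytic subunit beside it, was 1.55-fold higher in RAS/shDOT1L than RAS (log2 fold 0.64 ± 0.08 SE, adjusted p = 1.1e-08 by edgeR), and its difference in RAS against control was -0.22 as counted and 0.24 with the GC offset. ATP6V0D1, of the membrane part, was 1.95-fold higher in RAS (log2 fold 0.96 ± 0.04 SE, adjusted p = 1.03e-19 by edgeR) and 1.39-fold lower in DOT1L OE (log2 fold -0.48 ± 0.05 SE, adjusted p = 3.91e-10 by edgeR) than control. The accessory subunit ATP6AP1 was 1.65-fold higher in RAS than control and 1.93-fold lower in RAS/shDOT1L than RAS. ATP6V1H, a regulatory subunit, differed by at most 1.21-fold in the 4 comparisons as counted, and with the GC offset by 0.45 on the log2 scale in RAS against control and -0.38 in RAS/shDOT1L against RAS.

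MCOLN1 (chromosome 19, 7522624 to 7534009, plus strand), the calcium channel of the lysosome, had 37.9, 41.1 and 36 CPM in RAS/shDOT1L, 74.6, 72.8 and 70.7 in RAS, 51.5, 47.6 and 46.7 in DOT1L OE, and 28, 30 and 32.4 in control. Control was lowest and RAS highest, with no overlap between groups. It was 2.41-fold higher in RAS (log2 fold 1.27 ± 0.09 SE, adjusted p = 1.24e-14 by edgeR) and 1.62-fold higher in DOT1L OE (log2 fold 0.69 ± 0.09 SE, adjusted p = 2.62e-08 by edgeR) than control, and 1.87-fold lower in RAS/shDOT1L than RAS (log2 fold -0.91 ± 0.09 SE, adjusted p = 2.13e-10 by edgeR). The GC offset brought the log2 change in RAS against control to 0.74. Its exons overlap those of PNPLA6 on the same strand, at 177, 298, 192 and 163 CPM in RAS/shDOT1L, RAS, DOT1L OE and control. Reads shared by both may be uncounted under the counting that the study describes, so the level of MCOLN1 is uncertain. CLN3, a lysosomal membrane protein, passed the filter in no comparison. It averaged 0.206 CPM in control and was at 0 in all RAS/shDOT1L libraries. Its exons overlap those of a same-strand locus, so shared reads may be uncounted and its level is uncertain.

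The 3 MiT/TFE factors differed among themselves. MITF (chromosome 3, 69739456 to 69968336, plus strand), the melanocyte factor of the family, had 3.26, 2.82 and 5.68 CPM in RAS/shDOT1L, 9.53, 9.87 and 9.25 in RAS, 36.5, 30.9 and 28.1 in DOT1L OE, and 19.8, 24.2 and 22.5 in control. RAS and RAS/shDOT1L lay below control, and DOT1L OE above it, with no overlap. MITF was 5.62-fold lower in RAS/shDOT1L (log2 fold -2.49 ± 0.21 SE, adjusted p = 2.75e-11 by edgeR) and 2.32-fold lower in RAS (log2 fold -1.21 ± 0.15 SE, adjusted p = 1.09e-08 by edgeR) than control, and 1.44-fold higher in DOT1L OE (log2 fold 0.52 ± 0.11 SE, adjusted p = 0.000105 by edgeR). Against RAS, RAS/shDOT1L was 2.4-fold lower (log2 fold -1.26 ± 0.26 SE, adjusted p = 0.000118 by edgeR).

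TFE3 (chromosome X, 49028726 to 49043410, minus strand) was the most abundant of the 3, at 106 CPM per kb in RAS, against 2.29 for TFEB and 1.99 for MITF. It had 302, 289 and 298 CPM in RAS/shDOT1L, 364, 340 and 346 in RAS, 183, 179 and 178 in DOT1L OE, and 229, 247 and 246 in control. The groups did not overlap, with RAS highest and DOT1L OE lowest. In RAS it was 1.45-fold higher than control (log2 fold 0.54 ± 0.05 SE, adjusted p = 2.88e-12 by edgeR), which the GC offset brought to 0.08 on the log2 scale. In DOT1L OE it was 1.33-fold lower than control (log2 fold -0.42 ± 0.05 SE, adjusted p = 9.33e-09 by edgeR). TFEB (chromosome 6, 41683978 to 41736259, minus strand) had 7.69, 8.22 and 13.1 CPM in RAS/shDOT1L, 3.46, 6.6 and 5.94 in RAS, 2.24, 4.62 and 4.54 in DOT1L OE, and 4.02, 6.95 and 5.73 in control. The RAS/shDOT1L libraries lay above all others, and the other 3 groups overlapped. TFEB was 1.84-fold higher in RAS/shDOT1L than RAS (log2 fold 0.88 ± 0.26 SE, adjusted p = 0.00462 by edgeR), a call lost without RAS/shDOT1L replicate 3 (log2 change 0.60), and RAS against control did not pass the test as counted (log2 fold -0.06 ± 0.27 SE, adjusted p = 0.849 by edgeR). The GC offset gave 1.33 in RAS/shDOT1L against RAS and called TFEB lower in RAS than control (log2 fold -0.67, adjusted p = 0.0355).

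Genes with TCACGTGA in their promoter differed in the size of their changes. In RAS/shDOT1L against RAS the log2 changes were -1.95 for LAMP1, -1.11 for CTSA, -0.97 for GAA, -0.36 for ATP6V0D1 and -0.91 for MCOLN1. In RAS against control they were 0.28, 0.74, 0.37, 0.96 and 1.27 for the same genes, and in DOT1L OE against control -0.61, -0.47, 0.20, -0.48 and 0.69. With the GC offset the values in RAS/shDOT1L against RAS were -1.77, -0.88, -0.52, -0.10 and -0.57, and ATP6V0D1 lost its call (edgeR adjusted p = 0.0745). In RAS against control they were -0.03, 0.34, -0.25, 0.54 and 0.74, so LAMP1 and GAA changed sign. In DOT1L OE against control they were -0.68, -0.53, 0.08, -0.53 and 0.60.

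The largest fall of the set belonged to an autophagy gene. MAP1LC3B (chromosome 16, 87383953 to 87404779, plus strand) encodes LC3B, the protein that is joined to lipid on the autophagosome membrane. It had 42, 42.4 and 42.1 CPM in RAS/shDOT1L, 285, 307 and 304 in RAS, 137, 150 and 144 in DOT1L OE, and 224, 215 and 221 in control. RAS/shDOT1L libraries agreed closely with each other and lay far below all others. MAP1LC3B was 6.99-fold lower in RAS/shDOT1L than RAS (log2 fold -2.81 ± 0.06 SE, adjusted p = 3.85e-27 by edgeR) and 5.2-fold lower than control (log2 fold -2.38 ± 0.06 SE, adjusted p = 2.01e-22 by edgeR), and the GC offset left these at -3.10 and -2.27 on the log2 scale. In RAS it was 1.36-fold higher (log2 fold 0.44 ± 0.05 SE, adjusted p = 4.4e-10 by edgeR) and in DOT1L OE 1.53-fold lower (log2 fold -0.61 ± 0.05 SE, adjusted p = 4.38e-12 by edgeR) than control. Its near copy MAP1LC3B2 was at 0 in every library. FBXO31, whose exons overlap it on the opposite strand, stood at 27.3, 50.8, 27.6 and 29.2 CPM in RAS/shDOT1L, RAS, DOT1L OE and control.

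SQSTM1 (chromosome 5, 179806398 to 179838078, plus strand), the receptor p62 that links ubiquitinated cargo to LC3, had 366, 360 and 350 CPM in RAS/shDOT1L, 804, 773 and 798 in RAS, 826, 831 and 820 in DOT1L OE, and 311, 325 and 326 in control. RAS and DOT1L OE were both high, and RAS/shDOT1L lay just above control (0.17 on the log2 scale, and 0.01 with the GC offset). It was 2.58-fold higher in DOT1L OE (log2 fold 1.37 ± 0.04 SE, adjusted p = 1.36e-23 by edgeR) and 2.47-fold higher in RAS (log2 fold 1.30 ± 0.04 SE, adjusted p = 1.22e-24 by edgeR) than control, and 2.18-fold lower in RAS/shDOT1L than RAS (log2 fold -1.12 ± 0.04 SE, adjusted p = 1.44e-20 by edgeR). SQSTM1 and NPC1 were the only genes of the set over 1.5-fold higher in DOT1L OE than control by glmTreat. MGAT4B, whose exons overlap SQSTM1 on the opposite strand, stood at 207, 342, 251 and 243 CPM in RAS/shDOT1L, RAS, DOT1L OE and control.

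ULK1, the kinase that starts autophagy, was 1.79-fold higher in RAS than control (log2 fold 0.84 ± 0.07 SE, adjusted p = 1.9e-12 by edgeR) and 1.96-fold lower in RAS/shDOT1L than RAS (log2 fold -0.97 ± 0.08 SE, adjusted p = 3.78e-12 by edgeR). With the GC offset these were 0.24 and -0.53 on the log2 scale. WIPI1, a lipid-binding protein of the forming autophagosome, was 1.48-fold higher in RAS (log2 fold 0.57 ± 0.07 SE, adjusted p = 6.82e-09 by edgeR) and 1.48-fold lower in DOT1L OE (log2 fold -0.56 ± 0.07 SE, adjusted p = 2.08e-08 by edgeR) than control. GABARAPL1, a relative of LC3, did not pass the test as counted in either comparison with RAS. Its log2 change was -0.11 in RAS/shDOT1L against RAS (edgeR adjusted p = 0.161) and 0.01 in RAS against control (edgeR adjusted p = 0.873). With the GC offset it was called lower in RAS/shDOT1L than RAS (log2 fold -0.16, edgeR adjusted p = 0.0431). In DOT1L OE it was 1.21-fold higher than control as counted.

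**Figure D3:**
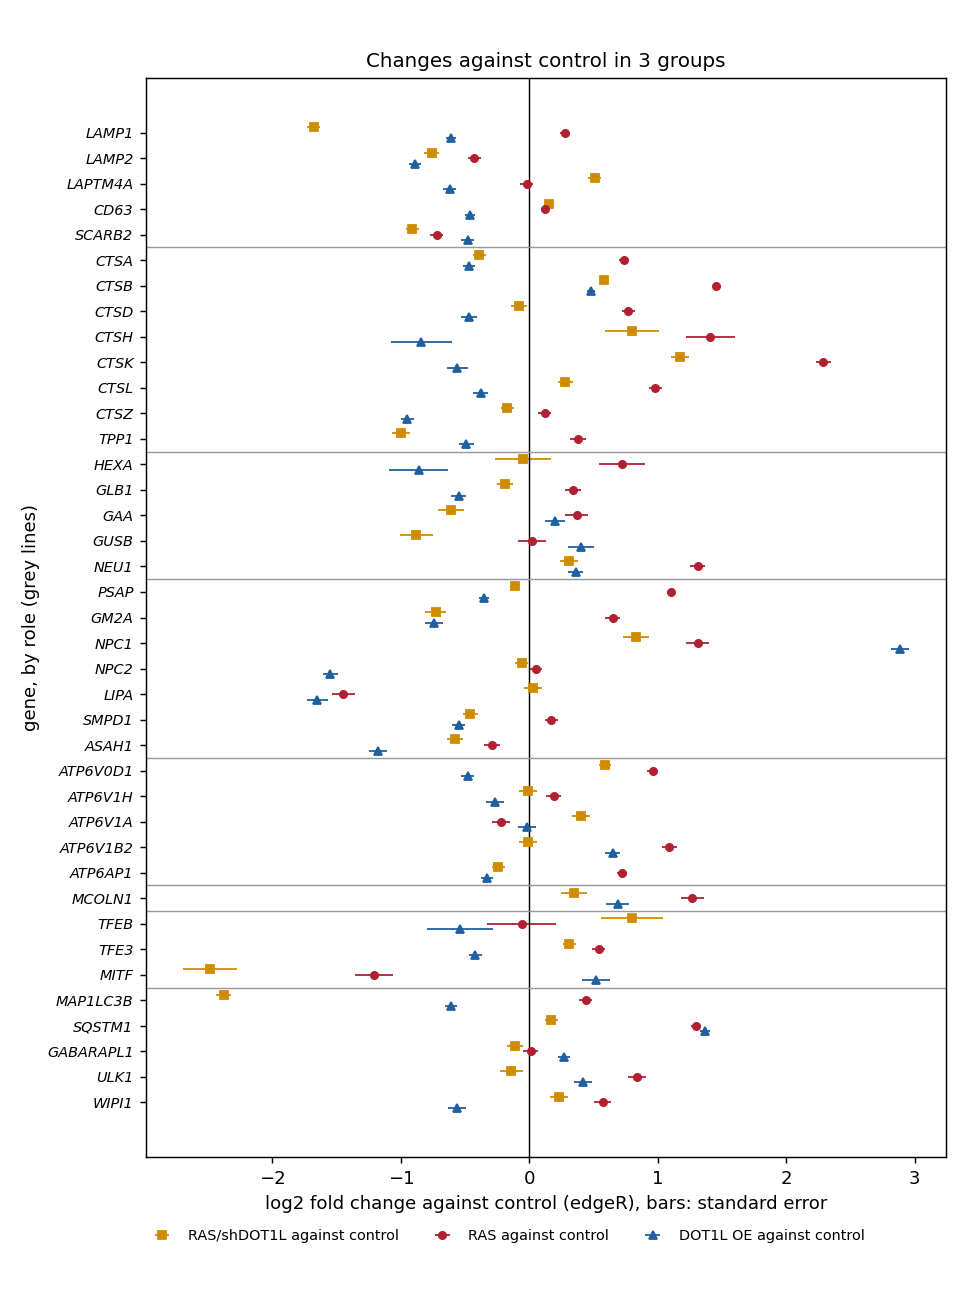
Log2 fold change against control (horizontal axis, edgeR, bars show the standard error) for 39 genes of the set, by role, in RAS/shDOT1L (squares), RAS (circles) and DOT1L OE (triangles). CTSS and LAPTM5, which exceed the axis, and CLN3, which was not tested, are left out. NPC1 reaches 2.89 in DOT1L OE, and MITF and MAP1LC3B lie at -2.49 and -2.38 in RAS/shDOT1L.

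The set was then split at the median GC content of all genes tested. In RAS against control, of 27 genes at or above the median, 24 were higher and the other 3 (GUSB, TFEB and GABARAPL1) were not called, with edgeR adjusted p of 0.914, 0.849 and 0.873. Over all genes at or above the median, 3397 were higher and 944 lower of 6618. Of 14 genes under the median, 6 were higher and 6 lower, where over all genes under it 872 were higher and 3343 lower of 6618. With the GC offset the counts became 18 higher and 6 lower of 27, where over all genes they were 1907 and 1801, and 11 higher and 3 lower of 14, where over all genes they were 1735 and 1665. CD63, CTSZ, GAA and SMPD1 changed from higher to lower between the fits, and LAMP2, ASAH1 and ATP6V1A from lower to higher. LAMP1 and TFE3 lost their call. LAPTM4A and NPC2 gained a call as higher, and GUSB and TFEB as lower.

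The same split was made in RAS/shDOT1L against RAS. Of the 27 genes at or above the median, 1 was higher and 23 lower, where over all genes 1031 were higher and 2649 lower of 6625, and of the 14 under it 3 were higher and 10 lower, where over all genes under it 2462 were higher and 841 lower of 6478. These became 2 and 21, and 3 and 11, once the GC offset was applied, where over all genes 1601 were higher and 1701 lower at or above the median and 1429 and 1442 under it. CTSZ, ATP6V0D1 and TFE3 lost their call, and no gene of the set was called in the opposite direction. CD63 gained a call as higher, and NPC2 and GABARAPL1 gained one as lower. In DOT1L OE against control the offset removed 1 call, of GAA, and added 1, of TFEB.

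**Figure D4:**
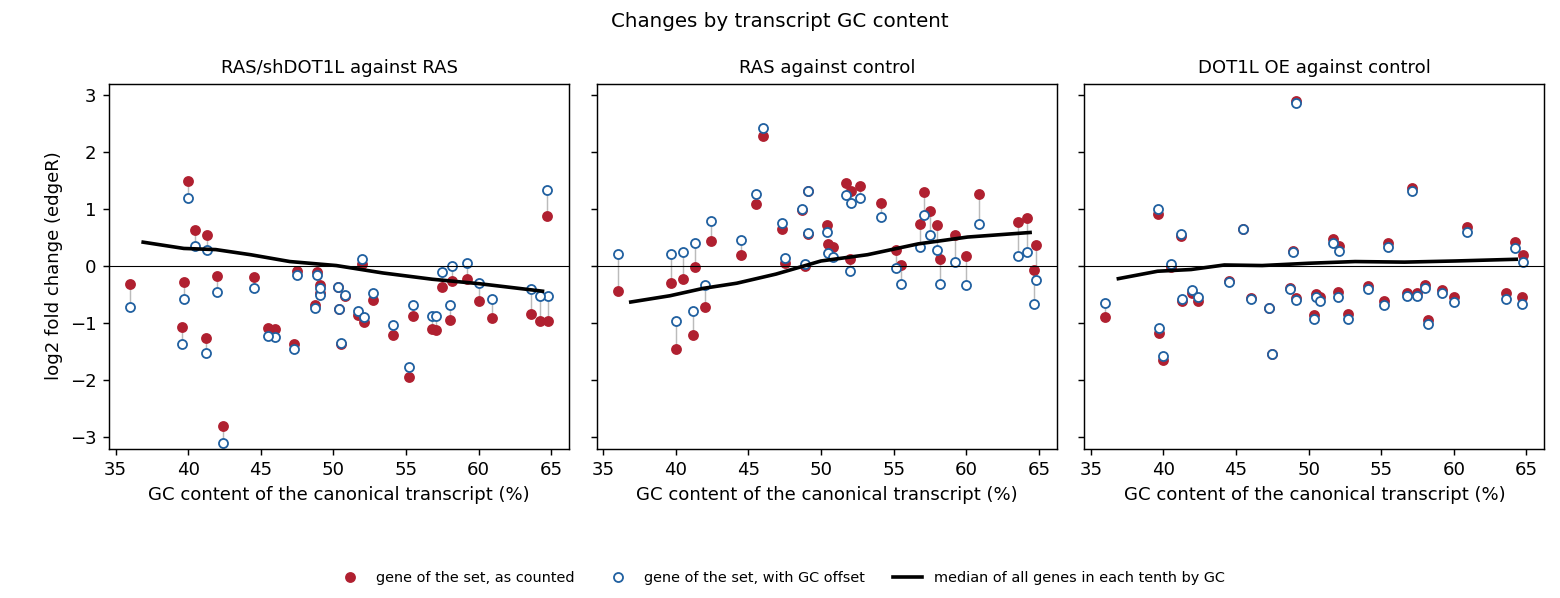
Log2 fold change (vertical axis) against GC content of the canonical transcript (horizontal axis, percent) in 3 comparisons. Filled points are genes of the set as counted, open points the same genes with the GC offset, joined by grey lines, and the black line is the median of all genes in each decile of GC. CTSS and LAPTM5 lie beyond the axis in RAS against control. In RAS against control the black line runs from -0.63 to 0.59 and most open points lie below filled ones at high GC and above them at low GC.

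Other genes of the pathway, from 4 lists that do not overlap the set, were counted in the same fits. The shares of all genes called, given above for each comparison, apply to them too (31.9% higher and 32.0% lower in RAS against control, 26.3% and 26.4% in RAS/shDOT1L against RAS, and 29.9% in either direction in DOT1L OE against control). Among 30 other lysosomal hydrolases tested, 14 were higher and 9 lower in RAS than control (median log2 change 0.19), 3 higher and 21 lower in RAS/shDOT1L than RAS (median -0.48), and 6 higher and 19 lower in DOT1L OE than control (median -0.39). The GC offset made these 10 and 9 (median -0.08), 3 and 19, and 6 and 20. DPP7, a dipeptidyl peptidase, was 2.27-fold higher in RAS than control and 2.23-fold lower in RAS/shDOT1L than RAS, and with the GC offset the first was 0.55 on the log2 scale in place of 1.18. GALNS, a sulfatase, was 2.23-fold lower in RAS/shDOT1L than RAS, and ACP2, an acid phosphatase, was 1.73-fold higher in DOT1L OE than control.

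Of 11 other pump subunits tested, 8 were higher and 2 lower in RAS than control, 3 higher and 7 lower in RAS/shDOT1L than RAS, and 3 higher and 5 lower in DOT1L OE than control. They numbered 10 and 0, 1 and 6, and 3 and 6 with the GC offset. ATP6V0B, of the proton-carrying ring, was 2.82-fold higher in RAS and 1.95-fold higher in DOT1L OE than control. TCIRG1, a large membrane subunit, was 2.17-fold higher in RAS than control and 2.62-fold lower in RAS/shDOT1L than RAS, and the GC offset brought the first to 0.50 on the log2 scale. ATP6AP2, an accessory subunit, was 2.01-fold lower in DOT1L OE than control.

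Of 29 genes of lysosomal transport and nutrient signalling, 14 were higher and 10 lower in RAS than control, 7 higher and 15 lower in RAS/shDOT1L than RAS, and 8 higher and 19 lower in DOT1L OE than control. The counts with the GC offset were 11 and 7, 2 and 14, and 8 and 18. CLCN7, the chloride-proton exchanger, was 3-fold higher in RAS than control and 3.01-fold lower in RAS/shDOT1L than RAS, and the GC offset brought the first to 0.99 on the log2 scale. IGF2R, a mannose 6-phosphate receptor that sorts hydrolases, was 1.72-fold higher and 2.68-fold lower in these comparisons, while SORT1, another sorting receptor, was 2.48-fold lower in RAS than control. RAB7A, the GTPase of late endosomes, was 2.27-fold lower in RAS/shDOT1L than RAS.

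Of 35 other autophagy genes, 15 were higher and 7 lower in RAS than control (median log2 change 0.09), 10 higher and 13 lower in RAS/shDOT1L than RAS (median log2 change 0.05), and 10 higher and 16 lower in DOT1L OE than control. The GC offset gave 19 and 4 (median 0.35), 6 and 15 (median -0.13), and 9 and 15. ATG2A, a lipid-transfer protein, was 2.73-fold higher in RAS than control and 2.12-fold lower in RAS/shDOT1L than RAS, at 0.85 and -0.65 on the log2 scale with the GC offset. Of the cargo receptors in this list, TAX1BP1 was 1.66-fold higher in RAS/shDOT1L than RAS, and OPTN was 1.81-fold lower in DOT1L OE than control.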

How the data were processed

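Poly(A) RNA of 12 IMR90 libraries, 3 in each of 4 groups taken from the sample titles, was sequenced as paired-end reads. The authors aligned the reads to GRCh38 and counted them by gene in STAR. The deposited values are raw counts, 1 file a library, by Ensembl gene ID. STAR 2.6.1 and DESeq2 2 are named in the processing notes of the submitters. The strand setting and annotation release are not given in the sources used here, so reads of overlapping genes on opposite strands cannot be told apart. Exons of 19 of the 42 genes overlap another gene in the files. Names came from a gene table that held 93.5% of 48162 IDs, and coordinates and transcript GC content from GENCODE on GRCh38.

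Tests of the counts used edgeR 4.0.16 under R 4.3.3 (filterByExpr, TMM scaling, quasi-likelihood F test, two-sided, each comparison on its own 6 libraries), called at a Benjamini-Hochberg adjusted p under 0.05 over all genes tested, with glmTreat as a second call at 1.5-fold. Log2 fold changes are given with standard errors. CPM values were computed here with TMM factors over all 12 libraries. The GC offset removes from each library its own trend of log2 CPM against GC content of the canonical transcript, taken in 20 bins. Alternatives were DESeq2 size factors, library size only, 2 other filters, DESeq2 1.42.0 (Wald test), voom with limma 3.58.1, 1 fit over all 4 groups, a replicate block, the GC offset and each library left out. The scripts were tested on simulated data with known changes.

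Library totals of 16128055 to 19503457 set the depth. Counting intervals cover counting error only. No pair of libraries within a group was a duplicate (chi-square over degrees of freedom between 4.333 and 7.874). Legends in the study speak of technical replicates of one experiment and its methods of biological replicates, so p-values cover only the spread among libraries, and that spread may be technical. The genes, the lists of other pathway genes and the tests were chosen with earlier results of these data known. By the rule for named genes, values in every library are given for genes called with a change of at least 2-fold in any comparison and for GLB1, LAMP1, LAMP2, TFEB, TFE3 and MITF, and for other pathway genes up to 3 per list and direction with the smallest p could be named. HEXA is shown with values outside that rule.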

Additional observations from a re-analysis of the deposited data

How the results depend on the processing

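The counts of genes higher and lower kept within 1.5 times of their main value under all 16 alternatives of each comparison, with 1 exception: in RAS against control, library size as the only scaling gave 10 lower in place of 6. That scaling moved the median log2 change of all genes in RAS against control to -0.24, where it was -0.04 with TMM, and that of RAS/shDOT1L against control to -0.13, where it was -0.01. Over the alternatives, RAS against control gave 25 to 30 higher and 6 to 10 lower, RAS/shDOT1L against RAS 3 to 5 and 31 to 33, DOT1L OE against control 11 to 13 and 26 to 27, and RAS/shDOT1L against control 13 to 17 and 15 to 20. Same-numbered libraries did not deviate together (correlations -0.01899 to 0.02733, 0 of 12 over 0.1), so the numbers do not pair the samples. With a replicate block the counts were 30 higher and 6 lower in RAS against control, 4 and 33 in RAS/shDOT1L against RAS, 12 and 27 in DOT1L OE against control, and 17 and 16 in RAS/shDOT1L against control.

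Single genes changed direction as follows, in log2 changes, and the cause was not tested beyond what each alternative removes. In RAS against control with the GC offset: LAMP1 -0.03, LAMP2 0.21, LAPTM4A 0.41, CD63 -0.08, CTSZ -0.32, GAA -0.25 (-0.24 with the replicate block with GC offset), GUSB -0.31, SMPD1 -0.33, ASAH1 0.21 and ATP6V1A 0.24; the replicate block with GC offset gave the same values for the others. With library size only: CD63 -0.08, CTSZ -0.08, GUSB -0.18, NPC2 -0.15, SMPD1 -0.03, ATP6V1H -0.01 and GABARAPL1 -0.19. With DESeq2 size factors or the Wald test LAPTM4A was 0.00. In RAS/shDOT1L against RAS TFE3 was 0.06 with the GC offset, with or without the replicate block. In DOT1L OE against control ATP6V1A was 0.06 with library size only and 0.04 with the GC offset, with or without the replicate block. In RAS/shDOT1L against control LIPA was -0.08 with library size only, ATP6V1H 0.06 and ATP6V1B2 0.02 with the GC offset, with or without the replicate block, and ATP6V1B2 0.00 with DESeq2 size factors or the Wald test. Leaving out 1 library in turn gave ranges across 0 for genes that were not called: in RAS against control LAPTM4A -0.08 to 0.02, GUSB -0.02 to 0.06, TFEB -0.26 to 0.17 and GABARAPL1 -0.03 to 0.05; in RAS/shDOT1L against RAS LAPTM5 -0.70 to 0.05; in DOT1L OE against control ATP6V1A -0.08 to 0.00; and in RAS/shDOT1L against control HEXA -0.17 to 0.19, ATP6V1H -0.03 to 0.01 and ATP6V1B2 -0.04 to 0.02. Calls were also lost by leaving out 1 library for ATP6V1H in RAS/shDOT1L against RAS (-0.17 without RAS replicate 1 or RAS/shDOT1L replicate 1, -0.19 without RAS replicate 3) and for GAA in DOT1L OE against control (0.15 without control replicate 2, 0.18 without control replicate 3 or DOT1L OE replicate 2, 0.21 without DOT1L OE replicate 3). In RAS/shDOT1L against control they were lost for PSAP (-0.10 without control replicate 1), TFEB (0.61 without control replicate 1, 0.52 without RAS/shDOT1L replicate 3) and WIPI1 (0.17 without control replicate 1, 0.16 without RAS/shDOT1L replicate 1). Low levels limit the precision for LAPTM5, CLN3, TFEB, HEXA and MITF.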
